A study of Mus musculus with 4 samples.

Results

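The simple epithelial keratins Krt7, Krt8, Krt18, Krt19 and Krt20 and the mesenchymal filament gene Vim were examined in mouse kidney. The genes were chosen with earlier results of these data known, so their counts against all genes are descriptions. All probe sets that the platform annotation assigns to these 6 genes were taken. They came to 10 probe sets of 34945 with a single gene symbol, and to 6 of 18193 genes. The series measured kidneys of female mice on the FVB/NJ background, with 1 array for each of 4 groups: diabetic uninephrectomy, diabetic sham, nondiabetic uninephrectomy and nondiabetic sham. Diabetic mice carried the OVE26 transgene, calmodulin under an insulin promoter, which acts in pancreatic beta cells and makes the mice diabetic early in life, and the nondiabetic mice were their littermates, labelled control. Mice had 1 kidney removed (uninephrectomy) or a sham operation at 2 months of age, and kidneys were perfused with saline and taken at 4.5 months, 10 weeks later. RNA of 4 mice was pooled before each array, so no value below measures the spread between animals, and a difference between 2 arrays has no replicate check.

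Keratins are the intermediate filament proteins of epithelia and assemble only as pairs of a type I and a type II chain. Krt8 and Krt7 encode type II chains, and Krt18, Krt19 and Krt20 encode type I chains. Krt8 and Krt18 form the basic pair of simple epithelia, including kidney tubules, while Krt7 and Krt19 are best known from ducts, the collecting duct and urothelium. Krt20 is known from intestinal epithelium and the umbrella cells of the urothelium and is scarce in healthy tubules. Vimentin is the filament protein of fibroblasts, endothelium, leukocytes and podocytes. Injured and regenerating tubule cells are known to gain keratins and vimentin.

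The 4 arrays had been scaled to a common level, with a mean signal of 500.003 after the highest and lowest 2% of probe sets were left out, and their median signals lay between 106.8 and 119.3. All 14 proximal tubule markers looked up were above the expression filter, as the labelled tissue requires. Control probe sets for 18S ribosomal RNA had a geometric mean 1.88 times that of nondiabetic sham mice on the diabetic uninephrectomy array. The ratio was 1.32 for diabetic sham and 1.02 for nondiabetic uninephrectomy mice (3 probe sets). The lowest signals differed too. The 20th percentile of signal was 23.3 in diabetic uninephrectomy and 29.8 in diabetic sham mice, against 30.1 in nondiabetic uninephrectomy and 23.7 in nondiabetic sham mice. The ratio of 3' to 5' signal, a sign of RNA integrity, differed for the beta-actin control. It was 3.382 in diabetic uninephrectomy and 3.723 in diabetic sham mice, against 3.492 in nondiabetic uninephrectomy and 2.775 in nondiabetic sham mice. For the Gapdh control it lay between 0.897 and 1.005. Whether any of these differences between arrays bears on the keratin values was not tested.

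All 10 probe sets had their highest signal on the diabetic uninephrectomy array, which was true of 26% of the 19366 probe sets above the expression filter. In 5 of the 10 the signals fell in the order diabetic uninephrectomy, diabetic sham, nondiabetic uninephrectomy and nondiabetic sham, an order found in 4.81% of the probe sets above the filter. These 5 covered Krt8, Krt18, Krt19, Krt20 and Vim, each with 1 probe set. The other probe sets of Krt8 and Vim did not keep this order. Krt20 is counted in both numbers although it is below the filter. Its order after the first array rests on signals of 33.6, 24.3 and 2.5. The plot of signals by group shows each probe set.

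**Figure D1:**
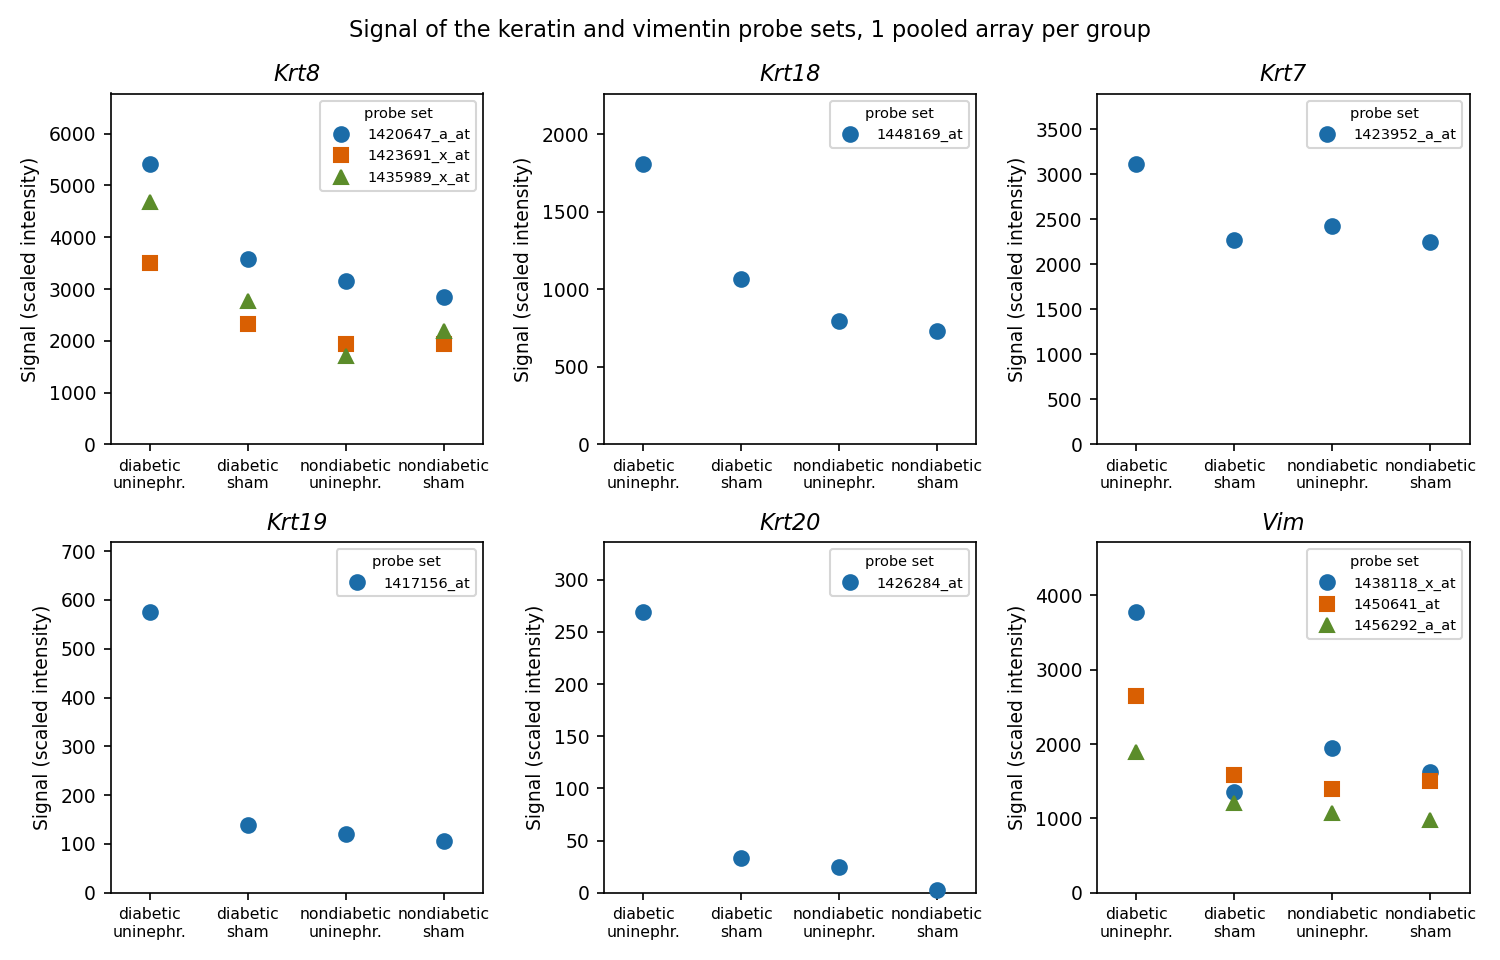
Signal of each probe set (scaled intensity, linear axis from 0) on the 4 arrays, 1 pooled array per group, with 1 panel per gene and 1 symbol per probe set. The diabetic uninephrectomy array is highest for every probe set, and Krt20 signals on the other 3 arrays do not exceed 33.6.

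The pair Krt8 and Krt18 was highest in diabetic uninephrectomy mice and was also higher in diabetic than in nondiabetic sham mice. Krt8 lies on chromosome 15 (101996711 to 102004342) and Krt18 on the same chromosome (102028216 to 102032026), in assembly GRCm38.p6 of the RefSeq gene table. They are 23873 bases apart, with 2 other annotated genes between them. Every keratin and Vim probe set was highest on the diabetic uninephrectomy array. No promoter of Krt19 was available in the sources, and that of Krt7 is not printed. RefSeq promoters of Krt8, Krt18, Krt20 and Vim are shown, running from 250 bases before the annotated start to 50 after it. Each is printed on the strand of its gene, from chr15:102004293-102004592 (minus strand) for Krt8, chr15:102027966-102028265 (plus) for Krt18, chr11:99438104-99438403 (minus) for Krt20 and chr2:13574061-13574360 (plus) for Vim. Capitals mark matches, on either strand, to a TATA box (TATAAA), an AP-1 site (TGANTCA), a GC box (GGGCGG) or a CCAAT box (CCAAT).
Krt8: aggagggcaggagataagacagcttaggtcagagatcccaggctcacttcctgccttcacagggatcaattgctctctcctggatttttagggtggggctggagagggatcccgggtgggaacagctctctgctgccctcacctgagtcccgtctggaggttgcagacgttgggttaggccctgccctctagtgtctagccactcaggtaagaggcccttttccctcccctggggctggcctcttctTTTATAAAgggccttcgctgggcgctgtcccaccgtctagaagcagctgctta
Krt18: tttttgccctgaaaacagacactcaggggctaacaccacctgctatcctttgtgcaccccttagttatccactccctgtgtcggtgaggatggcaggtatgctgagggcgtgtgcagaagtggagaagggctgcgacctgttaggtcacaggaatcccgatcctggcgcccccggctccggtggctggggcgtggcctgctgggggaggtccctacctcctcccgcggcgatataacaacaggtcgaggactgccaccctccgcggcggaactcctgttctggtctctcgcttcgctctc
Krt20: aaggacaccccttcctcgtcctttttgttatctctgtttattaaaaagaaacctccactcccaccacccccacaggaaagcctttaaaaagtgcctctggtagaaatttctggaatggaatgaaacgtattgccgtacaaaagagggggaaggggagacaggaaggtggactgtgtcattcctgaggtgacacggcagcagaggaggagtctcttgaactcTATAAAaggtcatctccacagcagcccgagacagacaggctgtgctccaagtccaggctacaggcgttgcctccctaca
Vim: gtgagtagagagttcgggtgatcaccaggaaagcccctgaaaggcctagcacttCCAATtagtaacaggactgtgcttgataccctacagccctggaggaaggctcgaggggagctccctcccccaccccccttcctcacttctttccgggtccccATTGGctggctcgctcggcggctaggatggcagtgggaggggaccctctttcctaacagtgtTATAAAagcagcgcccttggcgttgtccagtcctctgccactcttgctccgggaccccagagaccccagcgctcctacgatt

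TATAAA was found in the Krt8, Krt20 and Vim windows, against 13.6% of 32851 mouse promoters in the table. Its first base lay at -29 in Krt20 and -32 in Vim, counted from the annotated start. In Krt8 TATAAA matched on both strands, in overlapping places from -3 and -1 that run across the annotated start. Vim also held 2 CCAAT matches (37.4% of promoters hold at least 1), and Krt18 held no match to any of the 4 motifs. The Krt7 window, not printed, held 4 GC boxes (35.7% of promoters hold at least 1). No window of these 5 genes held TGANTCA, which 7.8% of promoters hold. These are matches of letters, not binding sites.

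Krt18, the type I chain of the pair, had a signal of 1810 in diabetic uninephrectomy and 1066.7 in diabetic sham mice, against 792.1 in nondiabetic uninephrectomy and 730.4 in nondiabetic sham mice. Both diabetic arrays thus lay above both nondiabetic ones, and the 2 nondiabetic arrays lay close together. On the log2(signal + 26.4) scale, used for every difference below, diabetic mice were higher by 1.17 after uninephrectomy (2.24-fold) and by 0.53 after sham surgery (1.44-fold). Of 11206 expressed genes, 162 were higher by more after uninephrectomy and 631 after sham surgery. Operated mice were higher than sham mice by 0.75 with diabetes (1.68-fold) and by 0.11 without it (1.08-fold), a value that turned to -0.02 with each array centred on its median.

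Krt8, the type II partner, was measured by 3 probe sets. The brightest, 1420647_a_at, had signals of 5422.1 in diabetic uninephrectomy and 3582.8 in diabetic sham mice, against 3145.8 in nondiabetic uninephrectomy and 2850.6 in nondiabetic sham mice. Probe set 1423691_x_at had 3498.7 and 2319.9 in diabetic mice (uninephrectomy, then sham), against 1935.4 and 1938.2 in nondiabetic mice. Probe set 1435989_x_at had 4677.5 and 2767.2 in diabetic mice, against 1708.8 and 2185.6 in nondiabetic mice. In all 3, both diabetic arrays lay above both nondiabetic arrays. The suffix x marks probe sets whose probes can also match other sequences, so related transcripts may add to their signals.

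The 3 Krt8 probe sets differed in size. After uninephrectomy the diabetic array was higher by 0.78, 0.85 and 1.44, of which only the last reaches 2-fold. After sham surgery they were nearly alike, with diabetic mice higher by 0.33, 0.26 and 0.34. With uninephrectomy in nondiabetic mice the brightest was 0.14 higher, probe set 1423691_x_at -0.002 and 1435989_x_at -0.35, so the sign of that difference depends on the probe set. In diabetic mice all 3 were higher after uninephrectomy, by 0.59, 0.59 and 0.75.

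Krt7, the other type II chain, differed least. Its signal was 3118.5 in diabetic uninephrectomy and 2273.4 in diabetic sham mice, against 2424 in nondiabetic uninephrectomy and 2243.2 in nondiabetic sham mice. The diabetic sham array lay between the 2 nondiabetic arrays. The diabetic array was higher by 0.36 after uninephrectomy and by 0.02 after sham surgery, and operated mice were higher by 0.45 with diabetes and by 0.11 without it. With each array centred on its median, the difference with diabetes after sham surgery turned to -0.07 and that with uninephrectomy in nondiabetic mice to -0.02. Krt7 lies on chromosome 15 too (101412403 to 101427806).

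Krt19 is the shortest keratin and lacks most of the tail domain. It lies on chromosome 11 (100140810 to 100145926). Its signal was 575 in diabetic uninephrectomy and 137.9 in diabetic sham mice, against 119.6 in nondiabetic uninephrectomy and 105.7 in nondiabetic sham mice. The diabetic uninephrectomy array stood alone, and the other 3 lay close together near the expression filter. Krt19 was 4.12-fold higher with diabetes after uninephrectomy (log2 2.04), where 32 expressed genes were higher by more, and 1.24-fold higher after sham surgery (log2 0.31). Uninephrectomy went with a 3.66-fold higher value in diabetic mice (log2 1.87) and a 1.11-fold higher one in nondiabetic mice. The gene would have passed the filter without its highest array too (mean log2 of 7.20 over the other 3, against a filter of 7.06).

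Krt20, also on chromosome 11 (99428385 to 99438153), was the dimmest of these genes. Its signal was 269 in diabetic uninephrectomy and 33.6 in diabetic sham mice, against 24.3 in nondiabetic uninephrectomy and 2.5 in nondiabetic sham mice. Only the first of these is clearly above the dim end of an array, at the 66.5th percentile of its signals, and the other 3 lie at or below the 21.8th. The mean of Krt20 was below the expression filter, so it was not among the genes tested. The diabetic array was higher by 2.54 on the log2 scale after uninephrectomy, a value that was 3.42 with an offset of 1 and 1.82 with an offset at the 40th percentile of signal. It stayed above 2-fold under these offsets, and its size depended on them. The difference with diabetes after sham surgery was 1.05, and 0.50 with the 40th percentile offset. With an offset of 1 the difference with uninephrectomy in nondiabetic mice was 2.85 in place of 0.81, so no fold between the 3 dim arrays can be read as a measured ratio.

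Vim, on chromosome 2 (13574311 to 13582826), was measured by 3 probe sets, 2 of which come from the same source sequence. The brightest, 1438118_x_at, had a signal of 3775.4 in diabetic uninephrectomy and 1352.1 in diabetic sham mice, against 1943 in nondiabetic uninephrectomy and 1626.7 in nondiabetic sham mice. Probe set 1450641_at had 2642.6 and 1579 in diabetic mice (uninephrectomy, then sham), against 1396.9 and 1502.5 in nondiabetic mice. Probe set 1456292_a_at had 1895.8 and 1212.1 in diabetic mice, against 1076.4 and 977.2 in nondiabetic mice. All 3 were highest in diabetic uninephrectomy mice, and they ordered the other 3 arrays differently.

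After uninephrectomy the 3 Vim probe sets gave nearly the same difference with diabetes, 0.95, 0.91 and 0.80 on the log2 scale (1.93-fold, 1.88-fold and 1.74-fold). After sham surgery they disagreed in sign, at -0.26, 0.07 and 0.30. With uninephrectomy in diabetic mice they gave 1.46, 0.73 and 0.63, so the 2-fold higher value rests on 1438118_x_at alone. In nondiabetic mice the values were 0.25, -0.10 and 0.14. Bulk kidney RNA cannot tell more cells that express vimentin from more vimentin RNA per cell, and the same holds for the keratins.

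**Figure D2:**
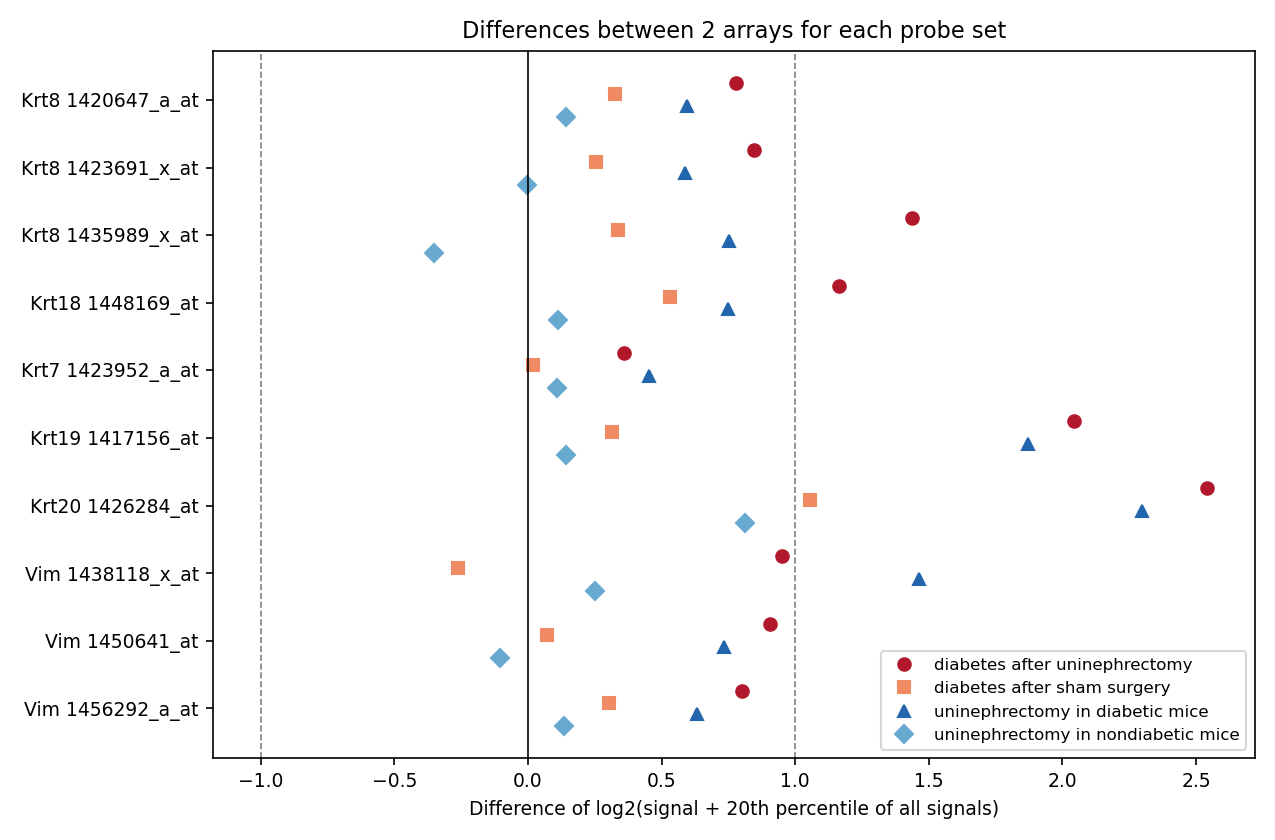
Difference between 2 arrays on the log2 scale (x axis) for each of the 10 probe sets (rows), with dashed lines at 2-fold. Differences with diabetes after uninephrectomy (circles) and with uninephrectomy in diabetic mice (triangles) lie to the right of 0 in every row and share the diabetic uninephrectomy array. Those with diabetes after sham surgery (squares) lie between -0.26 and 1.05, and those with uninephrectomy in nondiabetic mice (diamonds) between -0.35 and 0.81.

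The genes were then counted, each by its brightest probe set, in 4 comparisons that share arrays with one another. Of the 5 that passed the expression filter, 2 (Krt18 and Krt19) were at least 2-fold higher in diabetic than in nondiabetic uninephrectomy mice, as were 2.14% of all expressed genes. At 1.5-fold the count was 4 of 5, all but Krt7, against 6.43% of expressed genes. None was 2-fold higher in diabetic than in nondiabetic sham mice (0.794% of expressed genes were, and 4.36% at 1.5-fold, where again none was), nor after uninephrectomy in nondiabetic mice (0.678%, and 3.85% at 1.5-fold, again none). After uninephrectomy in diabetic mice 2 were (Krt19 and Vim), against 1.48% of expressed genes, and at 1.5-fold 4 were, all but Krt7, against 5.01%. None was 2-fold lower in any of the 4 comparisons. With diabetes 1.04% of expressed genes were after uninephrectomy and 0.446% after sham surgery, and with uninephrectomy 0.669% were in diabetic and 0.518% in nondiabetic mice. The median difference with diabetes over the 5 genes was 0.95 after uninephrectomy and 0.31 after sham surgery, and over all expressed genes it was -0.01 and 0.01. Krt20, which did not pass the filter, exceeded 2-fold under every offset tried in both comparisons that involve the diabetic uninephrectomy array.

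The difference with diabetes was larger after uninephrectomy than after sham surgery for every gene, with no replicate to test it. How many of all expressed genes share this was not counted. It draws on the same diabetic uninephrectomy array on which every probe set was highest, so it is not a separate result. The excess was 1.73 for Krt19, 1.49 for Krt20, 1.21 for Vim, 0.64 for Krt18, 0.45 for Krt8 and 0.34 for Krt7 on the log2 scale. It shrank to 0.11 for Krt20 with an offset of 1, and to 0.84 and 0.50 for Vim with its other probe sets. The scatter of the 2 surgery arms places these genes among all others.

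**Figure D3:**
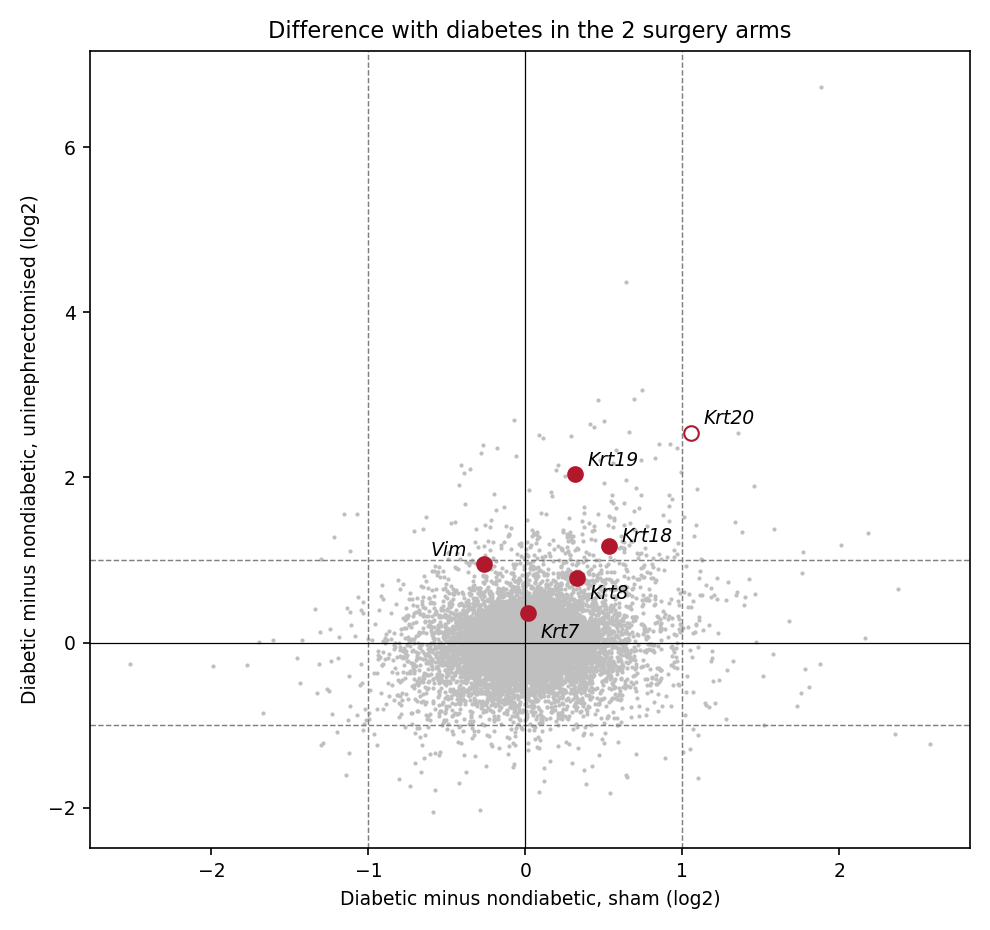
Difference with diabetes in sham mice (x axis) and in uninephrectomised mice (y axis), both diabetic minus nondiabetic on the log2 scale, for 11206 expressed genes (grey) and the keratins and vimentin (red, with Krt20 open as it did not pass the expression filter). Dashed lines mark 2-fold, and Krt18, Krt19 and Krt20 lie above the upper line while Krt8, Krt7 and Vim lie below it.

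Both arms were combined in an additive limma fit over all expressed genes, which has 1 residual degree of freedom and so takes its standard errors mainly from the spread of other genes at similar signal. Both factors use the diabetic uninephrectomy array. The fit takes a difference to be the same in both arms. For Krt19 the differences with diabetes were 2.04 after uninephrectomy and 0.31 after sham surgery. For Vim probe set 1438118_x_at those with uninephrectomy were 1.46 in diabetic and 0.25 in nondiabetic mice. The standard errors reflect such gaps between arms only slightly. In this fit 1.47% of expressed genes rose with diabetes and 0.732% fell. Krt18 rose by a mean of 0.85 ± 0.18 (limma SE, adjusted p = 0.00162), Krt8 by 0.55 ± 0.15 (adjusted p = 0.0335) and Krt19 by 1.18 ± 0.33 (adjusted p = 0.0339), each higher on the diabetic array in both arms. Krt7 differed by 0.19 ± 0.15 (limma adjusted p = 0.866) and Vim by 0.34 ± 0.17 (limma adjusted p = 0.538), and neither passed. All 3 calls were lost with each array centred on its median, with probe sets averaged by gene, with probe sets counted singly, without the expression filter and with a constant limma prior (adjusted p from 0.0683 to 0.569). Without the filter Krt20 had a mean difference of 1.80 (limma adjusted p = 0.344).

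With uninephrectomy 0.33% of expressed genes rose and 0.178% fell. Vim rose by 0.86 ± 0.17 (limma adjusted p = 0.00333), measured by 1438118_x_at. With probe sets counted singly none of its 3 passed, at 0.86 for 1438118_x_at (limma adjusted p = 0.383) and 0.32 and 0.39 for the other 2 (limma adjusted p = 1). The 4 keratins tested did not pass, with mean differences of 1.01 ± 0.33 for Krt19 (limma adjusted p = 0.222), 0.43 ± 0.18 for Krt18 (0.578), 0.37 ± 0.15 for Krt8 (0.615) and 0.28 ± 0.15 for Krt7 (0.974). The Vim call was also lost with median centring, without the expression filter, with a constant limma prior and with probe sets averaged (limma adjusted p = 0.439, 0.804, 0.785 and 0.999).

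Other keratins were nearly all too dim to compare. Of 28 further keratin genes on the array, which include those of epidermis and hair, 2 passed the expression filter. Krt10, a keratin of differentiated epidermis, had signals of 385.7 in diabetic uninephrectomy and 389.1 in diabetic sham mice, against 555.8 in nondiabetic uninephrectomy and 484.9 in nondiabetic sham mice. Krt80 had 209 and 213.8 in diabetic mice, against 299.6 and 310.7 in nondiabetic mice. Both were thus lower on the 2 diabetic arrays than on the 2 nondiabetic arrays, and neither passed limma (mean differences of -0.40 ± 0.22 and -0.48 ± 0.27, adjusted p = 0.637 and 0.658).

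Among 14 other intermediate filament genes, 4 passed the filter and 0 passed limma. Their median difference with diabetes was 0.03 after uninephrectomy and 0.17 after sham surgery. Lmna, which encodes lamins A and C of the nuclear envelope, had signals of 682.6 and 677.4 in diabetic mice (uninephrectomy, then sham), against 572.6 and 574 in nondiabetic mice. Des, the muscle and pericyte filament desmin, had 225.3 and 167 in diabetic mice, against 259.3 and 151.8 in nondiabetic mice, and so followed surgery more than diabetes. Lmnb1 (lamin B1) and Nes (nestin) were the other 2.

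Of 18 genes for linkers of intermediate filaments and for desmosomes, 16 passed the filter and 0 passed limma. The median difference with diabetes was 0.13 after uninephrectomy and -0.02 after sham surgery. Plec, which encodes plectin, a linker of filaments to hemidesmosomes and the cytoskeleton, had signals of 1001.4 and 920 in diabetic mice (uninephrectomy, then sham), against 723 and 621.3 in nondiabetic mice. Its mean difference of 0.50 ± 0.18 did not pass (limma adjusted p = 0.196). Ppl (periplakin) was the 1 linker gene at least 2-fold higher with diabetes after uninephrectomy, by 1.18, and it was -0.16 after sham surgery.

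Genes known from the loss of epithelial character were looked up too. Of 11 transcription factor, cadherin and mesenchymal genes 8 passed the filter, with a median difference with diabetes of 0.03 after uninephrectomy and -0.12 after sham surgery. The list holds both epithelial cadherin genes and mesenchymal genes, so its median cannot show whether these moved apart. In limma 2 rose and 0 fell with diabetes. S100a4, a calcium-binding protein gene of fibroblasts and leukocytes, rose by 1.53 ± 0.31 (limma adjusted p = 0.00118) and Fn1, which encodes the matrix protein fibronectin, by 0.84 ± 0.17 (limma adjusted p = 0.000839). Cdh1, the E-cadherin gene, differed by 0.32 after uninephrectomy and by -0.14 after sham surgery. Zeb2 and Snai2, transcription factors that repress epithelial genes, differed by 0.01 and 0.06 after uninephrectomy and by -0.25 and -0.29 after sham surgery.

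Most tubular injury genes were highest on the same array as the keratins. Of 11 that passed the filter 7 rose and 0 fell with diabetes in limma, with a median difference of 2.07 after uninephrectomy and 0.52 after sham surgery. Lcn2 and Cd44, both among the 7, passed the filter only through the diabetic uninephrectomy array. Over the other 9 genes 5 rose, with medians of 1.57 and 0.37 in these arms. Prom1 was not raised, with signals of 6618.9 and 6548.5 in diabetic mice (uninephrectomy, then sham), against 7408.2 and 8214.1 in nondiabetic mice. Havcr1, which encodes the injury receptor KIM-1, was higher with diabetes by 4.36 and 0.64, and Anxa3, an annexin gene, by 1.57 and 0.37. Clu, which encodes the chaperone clusterin, had signals of 21780.7 in diabetic uninephrectomy and 11244.3 in diabetic sham mice, against 11462.2 in nondiabetic uninephrectomy and 7856.6 in nondiabetic sham mice. It rose with both diabetes and uninephrectomy (limma adjusted p = 0.0112 and 0.0224).

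Markers of other cells that hold these filaments were looked up beside them. For urothelium, which expresses Krt7, Krt19 and Krt20, 5 of 12 markers passed the filter and 0 passed limma. Their summed signal was 1328 in diabetic uninephrectomy and 1536.6 in diabetic sham mice, against 993.7 in nondiabetic uninephrectomy and 1250.7 in nondiabetic sham mice. The uroplakin gene Upk1b had 284.9 in diabetic uninephrectomy and 336.4 in diabetic sham mice, against 184.8 in nondiabetic uninephrectomy and 311 in nondiabetic sham mice. Upk3a had 209.5 and 190.9 in diabetic mice (uninephrectomy, then sham), against 109.8 and 102.6 in nondiabetic mice. Upk2 had 189 and 137.8 in diabetic mice, against 137.8 and 236 in nondiabetic mice. The urothelial sum was highest in diabetic sham mice and includes the markers below the filter. Of 12 listed markers none was at 0, and the dimmest had signals from 2.7 to 6.4.

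For principal cells of the collecting duct, where Krt7, Krt8, Krt18 and Krt19 are known to be expressed, all 10 markers passed the filter. Their summed signal was 16256.3 in diabetic uninephrectomy and 15198.4 in diabetic sham mice, against 13319.3 in nondiabetic uninephrectomy and 18590.5 in nondiabetic sham mice. Its order rests on the water channel gene Aqp4, which had 5295.7 in nondiabetic sham mice. Without Aqp4 the sum was 13660.2 in diabetic uninephrectomy and 12977.6 in diabetic sham mice, against 11014.2 in nondiabetic uninephrectomy and 13294.8 in nondiabetic sham mice. Of the 10, the vasopressin-regulated water channel gene Aqp2 alone rose with diabetes (0.80 ± 0.16, limma adjusted p = 0.00136). The 14 proximal tubule markers, by contrast, had their lowest sum on the array where keratins were highest, 208284 in diabetic uninephrectomy and 261424.9 in diabetic sham mice, against 291934.5 in nondiabetic uninephrectomy and 273769.2 in nondiabetic sham mice. Of these 1 fell in limma, the organic anion transporter gene Slc22a8, and 0 rose.

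Cells rich in vimentin gave a mixed picture. Of 12 fibroblast and pericyte markers 11 passed the filter, with a summed signal of 30781.3 in diabetic uninephrectomy and 18174.4 in diabetic sham mice, against 12843.8 in nondiabetic uninephrectomy and 13270.4 in nondiabetic sham mice. In limma 5 rose and 0 fell with diabetes, among them the collagen gene Col3a1 (1.66 ± 0.18, adjusted p = 2.17e-09) and the smooth muscle gene Acta2 (0.78 ± 0.15, adjusted p = 0.00076). The defining receptor gene Pdgfrb had 1267.5 and 1052.4 in diabetic mice (uninephrectomy, then sham), against 827.6 and 903.7 in nondiabetic mice. The receptor gene Pdgfra did not peak with vimentin, at 893.9 and 1283.6 in diabetic mice, against 698 and 1081.2 in nondiabetic mice. The fibroblast and pericyte sum was thus higher in diabetic sham mice than in both nondiabetic groups. So were Vim probe sets 1450641_at and 1456292_a_at, while 1438118_x_at was lowest there.

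Of 12 leukocyte markers 10 passed the filter, with a summed signal of 15876.6 in diabetic uninephrectomy and 9146.3 in diabetic sham mice, against 8625.4 in nondiabetic uninephrectomy and 9860.3 in nondiabetic sham mice. The pan-leukocyte gene Ptprc (CD45) had 822.7 and 383 in diabetic mice (uninephrectomy, then sham), against 574 and 542.4 in nondiabetic mice, the same order of arrays as the brightest Vim probe set. Most other leukocyte markers were also highest in diabetic uninephrectomy mice, but some were not, among them Csf1r and Laptm5. Csf1r had 5181.9 and 5928.5 in diabetic mice, against 5092.9 and 6557.7 in nondiabetic mice. Laptm5 had 133.8 and 253.3 in diabetic mice, against 393.7 and 124.7 in nondiabetic mice. In limma 2 leukocyte markers rose with diabetes and 0 fell. They were Lyz2, a lysozyme gene of myeloid cells (1.70 ± 0.23, limma adjusted p = 6.49e-07), and Cd14, a coreceptor for endotoxin (limma adjusted p = 0.0279). Endothelial and podocyte sums did not peak with vimentin. The 12 endothelial markers summed to 10735.4 and 11587.5 in diabetic mice, against 10571.3 and 11192.3 in nondiabetic mice. The 8 podocyte markers on the array summed to 4066.1 and 6054.1 in diabetic mice, against 5686.4 and 6032.1 in nondiabetic mice, and Nphs1, the nephrin gene, fell with diabetes (limma adjusted p = 0.044). Of 5 mesothelium markers 2 passed the filter and 0 passed limma. Msln, the defining one, did not exceed a signal of 51.1 on any array, whereas Gpm6a had 5402 and 3821.6 in diabetic mice, against 4009.4 and 4903.4 in nondiabetic mice. The part of these cells in the keratin and vimentin values was not tested.

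**Figure D4:**
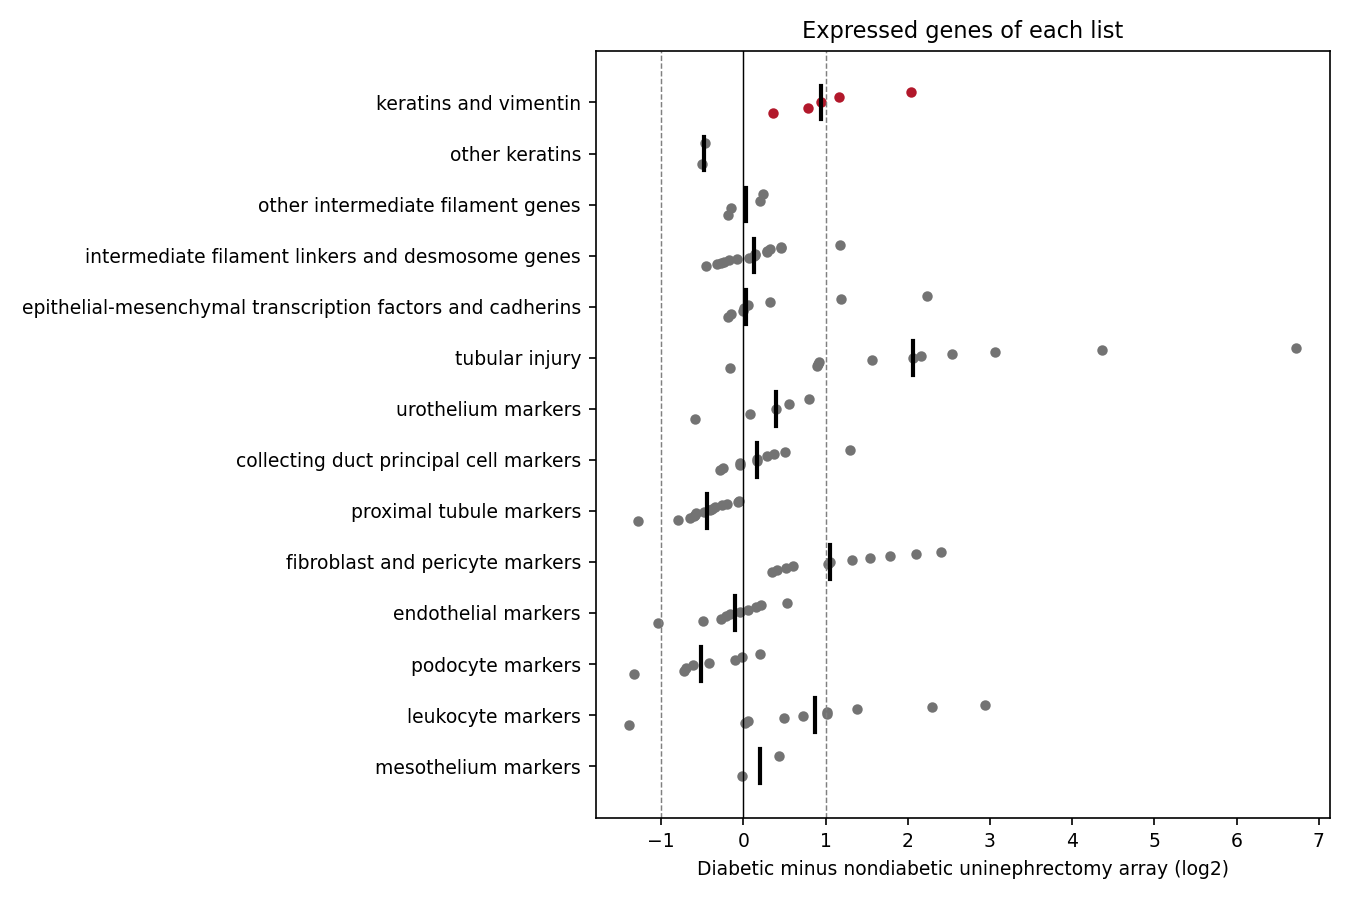
Difference between the diabetic and the nondiabetic uninephrectomy array on the log2 scale (x axis) for the expressed genes of each list (points), with the list's median as a black bar and dashed lines at 2-fold. The keratin and vimentin median of 0.95 lies beside those of fibroblast and pericyte (1.06, where Col1a1 passed the filter only through the first array) and leukocyte markers (0.87), and above those of collecting duct (0.17) and urothelium markers (0.39). It lies below that of tubular injury genes (2.07, where Lcn2 and Cd44 passed the filter only through the first array).

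For each gene with a 2-fold difference in any comparison, the expressed genes with the most similar pattern were sought, by the root mean square difference of log2 values over the 4 arrays after each gene was centred on its mean. With 4 arrays many genes share a pattern, so this is a description. The 3 nearest to Krt18 were Mcm4, a subunit of the replication helicase (0.02), and the collagen genes Col6a1 (0.05) and Col4a1 (0.06). Mcm4 had 815.9 in diabetic uninephrectomy and 499.5 in diabetic sham mice, against 356.4 in nondiabetic uninephrectomy and 330.7 in nondiabetic sham mice. Nearest to Krt19 were Cfi, the complement factor I gene (0.09), the collagen gene Col1a1 (0.14) and the tubulin gene Tubb2b (0.15). Col1a1 passed the filter only through the diabetic uninephrectomy array.

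Nearest to Krt20 were the fibrinogen gene Fgg (0.17), the hyaluronan receptor gene Cd44 (0.20) and the collagen gene Col12a1 (0.28). Krt20 itself did not pass the filter, and its pattern depends on the offset. Cd44 passed the filter only through the diabetic uninephrectomy array. The brightest Vim probe set had other neighbours, Csf1, the macrophage growth factor gene (0.05), Aldh1a2, a retinaldehyde dehydrogenase gene (0.08), and Thbs2, a matricellular thrombospondin gene (0.08). Csf1 had 635.4 in diabetic uninephrectomy and 206.8 in diabetic sham mice, against 338.6 in nondiabetic uninephrectomy and 274.4 in nondiabetic sham mice. Like this Vim probe set, these 3 genes were lowest in diabetic sham mice, whereas the neighbours of Krt18, Krt19 and Krt20 were lowest in nondiabetic sham mice.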

How the data were processed

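RNA of whole kidney was extracted with TriZol, pooled from 4 mice per group and labelled with biotin using a 3' IVT kit, per the labels' protocols. The deposited table holds intensity values of 45101 probe sets on a linear scale, summarised by the authors. Which software, background correction and scaling they used is not given in the sources. Arrays shared 1 trimmed mean, and values were neither ratios nor centred by gene.

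Probe sets took their gene symbols from the platform annotation, and 34741 of 34945 were found by Entrez number in a RefSeq gene table (GRCm38.p6). The offset of 26.4 added before taking log2 is the 20th percentile of all values and makes differences of dim genes smaller. Each gene used its brightest probe set by mean signal, and 11206 genes reached a mean log2 value of 7.06, the median over probe sets that are not controls. An additive model of diabetes and surgery was run in limma (version 3.58.1, R version 4.3.3) with a trended eBayes prior. It had 1 residual and 57.9 prior degrees of freedom, and Benjamini-Hochberg adjusted p below 0.05 made a call. That code was checked on simulated data. The number of arrays limits the precision.

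Members, lists and tests were chosen with earlier results of these data known. Named list genes passed limma, were among the 4 with the largest mean difference in their list, or are defining markers of a cell type. Cdh1, Pdgfra, Csf1r, Laptm5 and Prom1 were added after their values were seen. The 3 genes nearest in pattern were named too. List sums cover all genes on the array, and no list repeats a member gene. Alternatives were quantile normalization, median centring, offsets of 1 and of the 40th percentile (72.5), no expression filter, a 75th percentile filter, probe sets averaged by gene or counted singly, a 1.5-fold threshold, an untrended limma prior and an adjusted p below 0.1. Leaving out genes that passed the filter only through 1 array, and Aqp4 from a sum, was added after seeing the data.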

Additional observations from a re-analysis of the deposited data

Results flagged for a closer look

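For 4 probe sets the same contrast had opposite signs in its 2 arms, each arm being a difference of 2 arrays, and the difference between arms was not tested. Vim probe set 1438118_x_at was 0.95 higher on the log2 scale with diabetes after uninephrectomy and -0.262 after sham surgery. Vim probe set 1450641_at was 0.73 higher with uninephrectomy in diabetic mice and -0.103 in nondiabetic mice. Krt8 probe set 1435989_x_at gave 0.75 and -0.35 for the same 2 arms, and Krt8 probe set 1423691_x_at 0.59 and -0.002. The last negative value is close to 0. For both genes a further probe set kept 1 sign in that contrast, 1456292_a_at for Vim and 1420647_a_at for Krt8.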

How the results depend on the processing

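No paired analysis was possible because each group has 1 array. Leaving out an array leaves the additive fit without residual degrees of freedom, so it was not run. No difference of 2-fold changed sign under any alternative. Median log2 values of the arrays lay between 7.06 and 7.19, and centring them turned the small Krt7 and Krt18 values given in the report. With averaged probe sets Krt8 turned to -0.07 (uninephrectomy in nondiabetic mice) and Vim to 0.04 (diabetes after sham surgery).

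Differences between 2 arrays crossed the 2-fold threshold in these cases. For diabetic over nondiabetic uninephrectomy mice Krt8 reached 1.02 with the mean of its probe sets and 1.44 with 1435989_x_at, and Vim reached 1.07 with median centring. For diabetic uninephrectomy over diabetic sham mice Vim was 0.94 with the mean of its probe sets, 0.73 with 1450641_at and 0.63 with 1456292_a_at. For diabetic over nondiabetic sham mice Krt20 was 0.95 with quantile normalization, 0.96 with median centring and 0.50 with the offset at the 40th percentile. For nondiabetic uninephrectomy over nondiabetic sham mice it was 2.85 with an offset of 1. At a threshold of 1.5-fold the differences of Krt8 (0.78 with diabetes after uninephrectomy, 0.59 with uninephrectomy in diabetic mice), Krt18 (0.75 with uninephrectomy in diabetic mice), Krt20 (0.81 with uninephrectomy in nondiabetic mice) and Vim (0.95 with diabetes after uninephrectomy) passed as well. The excess of the diabetes difference after uninephrectomy was 1.10 for Krt8 with 1435989_x_at, 0.11 for Krt20 with an offset of 1, and for Vim 0.85 with the mean of probe sets, 0.84 with 1450641_at and 0.50 with 1456292_a_at.

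The number of expressed keratin and vimentin genes at least 2-fold higher with diabetes after uninephrectomy was 2 as reported. It was 3 with median centring, with the mean of probe sets and without the filter. It was 1 with the 75th percentile filter, which Krt19 did not pass, and 4 at 1.5-fold. With uninephrectomy in diabetic mice it was 1 with the mean of probe sets, 1 with the 75th percentile filter, 3 without the filter and 4 at 1.5-fold. With diabetes after sham surgery it was 1 without the filter, as Krt20 then counts.

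The limma calls were less stable than the values. With median centring the mean differences with diabetes were 0.57 (Krt8), 0.86 (Krt18) and 1.19 (Krt19), with adjusted p = 0.285, 0.0845 and 0.171. With the mean of probe sets they were 0.66, 0.85 and 1.18 (limma adjusted p = 0.314, 0.212 and 0.4). With probe sets counted singly they were 0.55, 0.55 and 0.89 for the 3 of Krt8, 0.85 for Krt18 and 1.18 for Krt19 (limma adjusted p from 0.0683 to 0.263). Without the filter (0.55, 0.85 and 1.18) and without a trend (the same values) limma adjusted p lay between 0.174 and 0.569. The Vim difference with uninephrectomy was 0.83 with median centring, 0.52 with the mean of probe sets, 0.86, 0.32 and 0.39 for its probe sets counted singly, and 0.86 without the filter and without a trend (limma adjusted p from 0.383 to 1).

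Over all expressed genes 165 rose and 82 fell with diabetes in limma. These became 61 and 27 with median centring, 3 and 0 with the mean of probe sets, 41 and 21 with probe sets counted singly, 9 and 4 without the filter, and 0 and 0 without a trend (907 at an unadjusted p below 0.05). With uninephrectomy 37 rose and 20 fell, which became 79 and 37 with quantile normalization, 5 and 4 with median centring, 0 and 1 with the mean of probe sets, 10 and 6 with probe sets counted singly, 0 and 2 without the filter, 1 and 3 without a trend, and 58 and 32 at an adjusted p below 0.1. From the 75th percentile filter to no filter, the number of expressed genes at least 2-fold higher ranged from 83 to 657 for diabetic over nondiabetic uninephrectomy mice (240 as reported), from 18 to 852 for diabetic over nondiabetic sham mice (89), from 46 to 577 for diabetic uninephrectomy over diabetic sham mice (166) and from 12 to 847 for nondiabetic uninephrectomy over nondiabetic sham mice (76).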
